A study of Mus musculus with 10 samples.

Results

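The 10 genes described here are Akr1b3, Slc5a3, Slc6a6, Slc38a2, Slc6a9, Pnpla6, Hspa4l, Sgk1, S100a4 and Akap13. They form a set listed as osmotic stress targets of the transcription factor NFAT5, though Akap13 belongs upstream of it. They were taken by gene symbol from the 54337 mouse genes that the deposited transcript tables cover, and all 10 passed the filter on low counts that left 14473 genes for testing. The rule that names them uses no expression value, though results of these data were known when it was set. Gene positions below are those of GENCODE M21 on GRCm38.

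When the salt concentration outside a cell rises, water leaves, the cell shrinks and its contents become crowded. NFAT5, also called TonEBP, then binds TonE elements in DNA and switches on transporters and enzymes that load the cell with small organic osmolytes such as sorbitol, myo-inositol, taurine and betaine, together with chaperones that protect proteins. NFAT5 is the member of the NFAT family that is not driven by calcineurin. In T cells it is known both for this response and for roles in cells kept at normal salt.

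The libraries are bulk RNA from T cells recovered from tumours. CD8 T cells with the transgenic TCRP1A receptor, which recognises the tumour antigen P1A, were activated for 24 h in culture, infected with a retrovirus and injected 24 h later into Rag1-/- B10D2 mice that carried P511 mastocytoma, a mast cell tumour. CD8 cells were sorted from the tumours at day 7. The NFAT5 group (libraries 1, 5 and 8) had received a vector that overexpresses NFAT5. The CA-RIT NFAT1 group (2, 4, 9 and 10) had received CA-RIT NFAT1, a constitutively active NFAT1 made unable to cooperate with AP-1. The eGFP control group (3, 6 and 7) had received the empty vector with eGFP, a fluorescent protein. The activation, the tumour, the hosts without B or T cells of their own and the sort were common to all groups, and the labels give the strain as C57BL/6 throughout. The cells carry the vector's product on top of their own genes, and the promoter that drives it is not given in the sources used here. Nothing in the labels ties each library to a mouse of its own; the p-values therefore reflect the spread among these samples alone, which may be technical.

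Of the 10 libraries, 9 held 18.8 to 36.6 M estimated reads and eGFP control 7 held 51112. eGFP control 7 had no read on Cd8a, Cd3g, Cd2 or Cd28. CA-RIT NFAT1 10 had 246 CPM (gene reads scaled to 1 M reads of the library) summed over 9 T cell genes. The other CA-RIT NFAT1 libraries had 27374 to 32439 CPM. Over 8 mast cell and P511 genes CA-RIT NFAT1 10 had 2704 CPM, against 35.5 to 112 CPM in those libraries. In eGFP control 7 the 9 T cell genes summed to 391 CPM, against 40606 and 32000 CPM in eGFP control 3 and 6. These are the libraries that go against their label, so the results below rest on the other 8 libraries (3 NFAT5, 3 CA-RIT NFAT1 and 2 eGFP control), and the values of eGFP control 7 and CA-RIT NFAT1 10 are given beside them. In the 8 libraries the summed mast cell and P511 genes lay between 23.6 and 112 CPM. Among them Cpa3 had 11.8 to 66.1 CPM and Kit 4.41 to 33.7 CPM. The mast cell markers Fcer1a and Tpsb2 had no reads in these libraries, but they had none in CA-RIT NFAT1 10 either. In bulk samples like these, fewer cells of a type and less RNA per cell cannot be told apart.

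Nfat5 itself (chr8:107293470-107379517, plus strand) was highest in the NFAT5 libraries. It had 87.0, 81.6 and 48.0 CPM in NFAT5 1, 5 and 8, 10.7, 4.69 and 3.01 CPM in CA-RIT NFAT1 2, 4 and 9, and 1.12 and 6.88 CPM in eGFP control 3 and 6. The lowest NFAT5 library stood above the highest other library. The difference in mean log2(CPM + 1) between NFAT5 and the other 5 libraries was 3.72, with an exact two-sided permutation p of 0.0357, the smallest that 3 against 5 libraries allow. In the test across all genes (edgeR's quasi-likelihood test with Benjamini-Hochberg adjustment) the log2 fold change was 4.11 ± 0.89 (SE) for NFAT5 against eGFP control, adjusted p = 0.654, and 3.58 ± 0.72 for NFAT5 against CA-RIT NFAT1, adjusted p = 1.00. Against eGFP control the value was 3.36 without eGFP control 3 and 5.83 without eGFP control 6, each with a lone control left. The median over all genes was 0.05 and 0.45 in these fits. DESeq2 gave adjusted p = 6.2e-05 and 8.5e-04 for NFAT5 against eGFP control and against CA-RIT NFAT1. Most Nfat5 reads of the NFAT5 libraries fell on 1 transcript, Nfat5-211, with 1878 of 2158, 1286 of 1530 and 788 of 1098 reads in NFAT5 1, 5 and 8. That transcript had 33 of 319 reads in CA-RIT NFAT1 2 and none in the other libraries. Over the other Nfat5 transcripts the NFAT5 libraries had 11.3, 13.0 and 13.6 CPM. CA-RIT NFAT1 had 9.63, 4.69 and 3.01 CPM there, and eGFP control had 1.12 and 6.88 CPM. Part of the NFAT5 values came from 1 short transcript of 432 bases, with 60, 151.3 and 130.3 reads in NFAT5 1, 5 and 8. That short transcript had 3.7 reads in CA-RIT NFAT1 4 and none in the other libraries. Whether reads from the vector were divided among the Nfat5 transcripts was not tested. Nfat5 had 0.0923 CPM in CA-RIT NFAT1 10 and no read in eGFP control 7.

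NFAT5 recognises the TonE element, whose core is TGGAAA, and the sequences just upstream of the members were read from the RefSeq promoter table (build GRCm38.p6, 250 bases before to 50 bases after each annotated start). The table holds 17 start sites for 8 of the 10 members; Akr1b3 and Slc6a6 are not among them. The core, searched on both strands, was present in 4 of the 17 windows, belonging to Pnpla6 and Sgk1, while 21.4% of all 32851 windows hold it. The longer TonE consensus, which includes the core, was present in 1 member window, of Pnpla6, against 4.96% of all windows. A match describes letters only, and known NFAT5 sites can lie further from the start than these windows reach. The windows below show the Pnpla6 match, 1 of the Sgk1 matches, and the windows of S100a4 and Slc38a2, whose NFAT5 and CA-RIT NFAT1 libraries all lie on the same side of both controls. The S100a4 and Slc38a2 windows hold no core, and nor do the 3 windows of Slc6a9. The core is in capitals, as TTTCCA where it lies on the opposite strand, and each sequence runs 5′ to 3′ along the gene's strand.
Pnpla6 (chr8:3515386-3515685, plus strand, upstream of Pnpla6-218 and inside the gene, TonE consensus): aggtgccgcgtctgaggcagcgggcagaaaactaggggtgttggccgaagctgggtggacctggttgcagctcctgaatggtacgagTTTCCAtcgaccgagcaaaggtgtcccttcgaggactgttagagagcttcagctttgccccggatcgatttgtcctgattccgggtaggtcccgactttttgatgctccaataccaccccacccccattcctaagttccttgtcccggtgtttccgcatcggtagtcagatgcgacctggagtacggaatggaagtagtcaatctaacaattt
Sgk1 (chr10:21993640-21993939, plus strand, upstream of Sgk1-202 and inside the gene): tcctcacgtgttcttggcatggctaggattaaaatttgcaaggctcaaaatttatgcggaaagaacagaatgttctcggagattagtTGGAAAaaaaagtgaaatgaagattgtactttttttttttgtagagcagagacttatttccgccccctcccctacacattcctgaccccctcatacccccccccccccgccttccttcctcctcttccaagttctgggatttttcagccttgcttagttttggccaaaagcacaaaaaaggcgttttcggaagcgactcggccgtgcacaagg
S100a4 (chr3:90603520-90603819, plus strand, upstream of S100a4-201): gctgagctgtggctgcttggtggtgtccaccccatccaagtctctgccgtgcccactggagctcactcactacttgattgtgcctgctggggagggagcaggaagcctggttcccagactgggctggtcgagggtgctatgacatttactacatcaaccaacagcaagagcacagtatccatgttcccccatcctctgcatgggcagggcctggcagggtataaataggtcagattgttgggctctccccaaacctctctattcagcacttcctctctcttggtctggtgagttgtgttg
Slc38a2 (chr15:96699679-96699978, minus strand, upstream of Slc38a2-201): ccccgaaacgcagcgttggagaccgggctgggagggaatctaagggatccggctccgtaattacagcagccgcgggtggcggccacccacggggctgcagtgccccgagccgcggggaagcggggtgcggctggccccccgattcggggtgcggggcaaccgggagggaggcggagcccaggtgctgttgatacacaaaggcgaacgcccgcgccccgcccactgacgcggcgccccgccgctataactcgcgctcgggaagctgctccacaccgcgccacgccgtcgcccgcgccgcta

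The 10 genes spanned a wide range of levels. Per transcript length, the mean over the 8 libraries was 1003 ± 348 TPM (SD, n = 8 throughout this paragraph) for S100a4, which ranked 136th of the 14473 tested genes. Akr1b3 followed at 318 ± 27.2 TPM. Sgk1 had 40.8 ± 15.3 TPM, Akap13 39.5 ± 12.9 TPM, Slc6a6 31.2 ± 9.47 TPM and Slc38a2 26.9 ± 9.15 TPM, and these 4 neighbours do not differ beyond their spread. Hspa4l had 11.5 ± 4.43 TPM and Pnpla6 6.31 ± 3.20 TPM, also within each other's spread. Slc6a9 had 0.892 ± 1.31 TPM and Slc5a3 0.138 ± 0.0726 TPM, the lowest level, with 4.20% of tested genes below it. Aldose reductase, the product of Akr1b3, thus came from a transcript above 96.4% of tested genes, and the myo-inositol transporter Slc5a3 from a rare one.

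None of the 10 osmotic stress genes passed the test across all genes in any of the 3 comparisons. In NFAT5 against eGFP control 3 of 10 had a higher fitted level and 7 a lower one, with a median log2 fold change of -0.37, or -0.28 when group means are used and Slc6a9 is put at its bound; over all tested genes the median was 0.08 and 53.9% were higher. Adjusted p was below 0.05 for 0 of the 10 and for 0% of all tested genes; at an unadjusted p below 0.05 the counts were 3 of 10 (Slc38a2, S100a4 and Slc6a9) and 7.26% of all genes. Slc6a9, with no reads in NFAT5, passed the low-count filter through the other groups alone. Its place in this count is therefore no separate support. DESeq2 called 0 members as well. In NFAT5 against CA-RIT NFAT1 5 members were higher and 5 lower (median -0.15, against 0.00 over all genes), 0 passed the test, as did 0% of all genes, and 1 member had an unadjusted p below 0.05, against 1.13% of all genes. In CA-RIT NFAT1 against eGFP control 4 were higher and 6 lower (median -0.12, against 0.10 over all genes), 0 passed, as did 0% of all genes, and 1 had an unadjusted p below 0.05, against 6.44% of all genes. The comparisons with eGFP control share the same 2 control libraries.

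**Figure D1:**
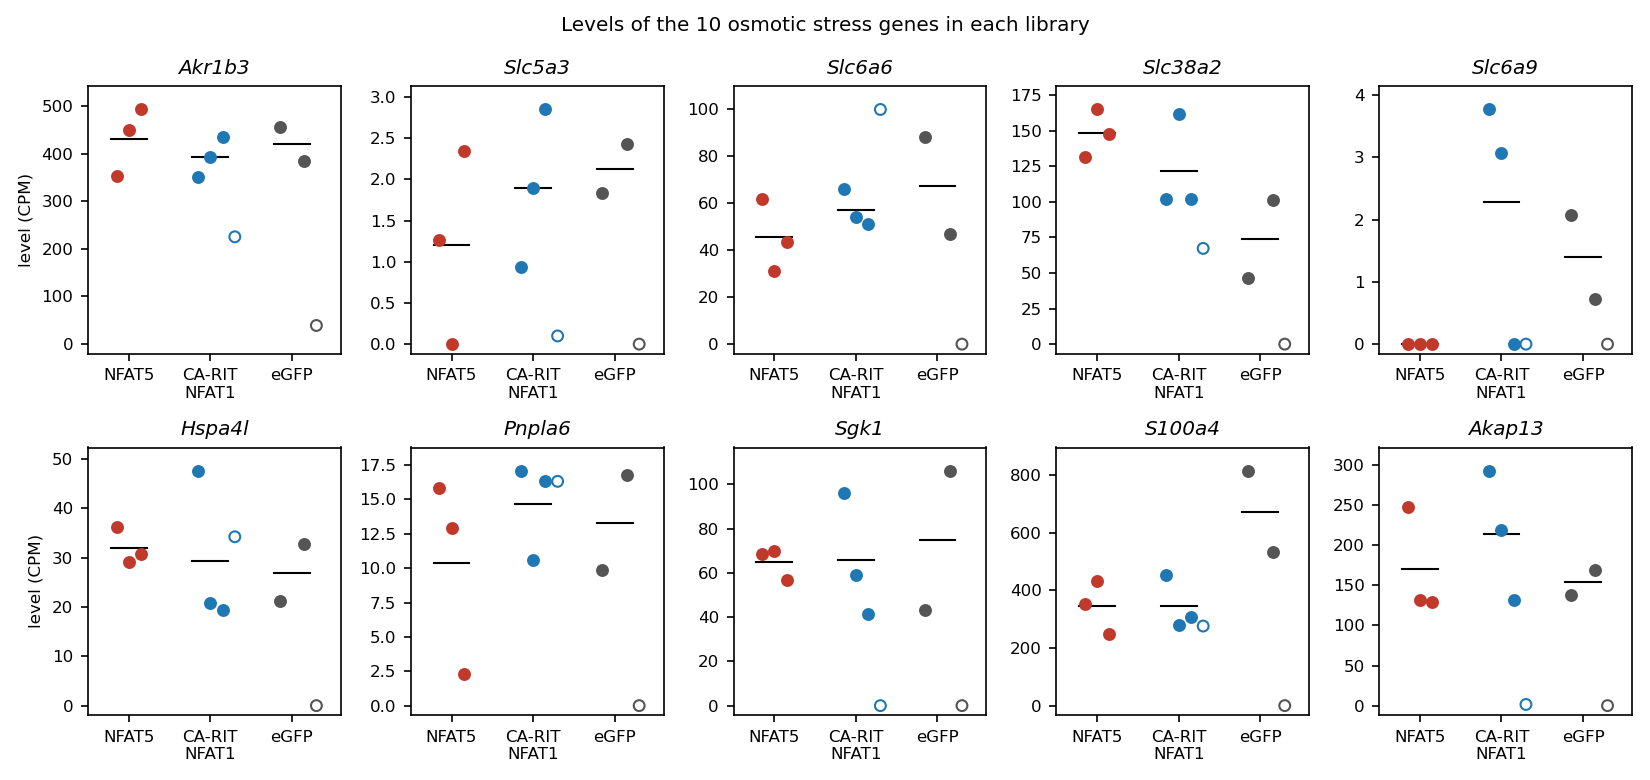
Level of each of the 10 genes in CPM (y axis, linear, a separate scale for each gene) by group, 1 point per library. Filled points are the 8 libraries of the comparisons with a line at their group mean, and open points are CA-RIT NFAT1 10 and eGFP control 7. Slc38a2 is higher and S100a4 lower in every filled NFAT5 and CA-RIT NFAT1 point than in both eGFP controls, and Slc6a9 is at 0 in the 3 NFAT5 libraries.

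Libraries that do not overlap were then counted, and in NFAT5 against eGFP control these were the same 3 genes. A member whose NFAT5 libraries all stand above both eGFP controls was found once (Slc38a2; 14.2% of all tested genes do this), and members with all NFAT5 libraries below both controls were S100a4 and Slc6a9 (8.15% of all tested genes). The limit from the low-count filter holds for Slc6a9 here too. No member had its 3 NFAT5 libraries all above (2.78% of all genes) or all below (4.06%) the 3 CA-RIT NFAT1 libraries. Slc38a2 was again above (14.2% of all genes) and S100a4 below (6.67%) both eGFP controls in all 3 CA-RIT NFAT1 libraries. Against all the other 5 libraries together, where Nfat5 is separated, 0 members were higher in all NFAT5 libraries (1.26% of all genes) and 0 were lower in all of them (1.15%). The libraries fall into a cluster of 3 with Nfat5 at 48.0 to 87.0 CPM and a cluster of 5 at 1.12 to 10.7 CPM, each with fewer than 6 libraries, so no correlation of the members with Nfat5 is given. Summed over the 10 genes, NFAT5 1, 5 and 8 had 1270, 1323 and 1155 CPM, CA-RIT NFAT1 2, 4 and 9 had 1430, 1202 and 1107 CPM, and eGFP control 3 and 6 had 1622 and 1393 CPM. The NFAT5 sums lay below both control sums, and S100a4 made up the largest share of the control sums.

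**Figure D2:**
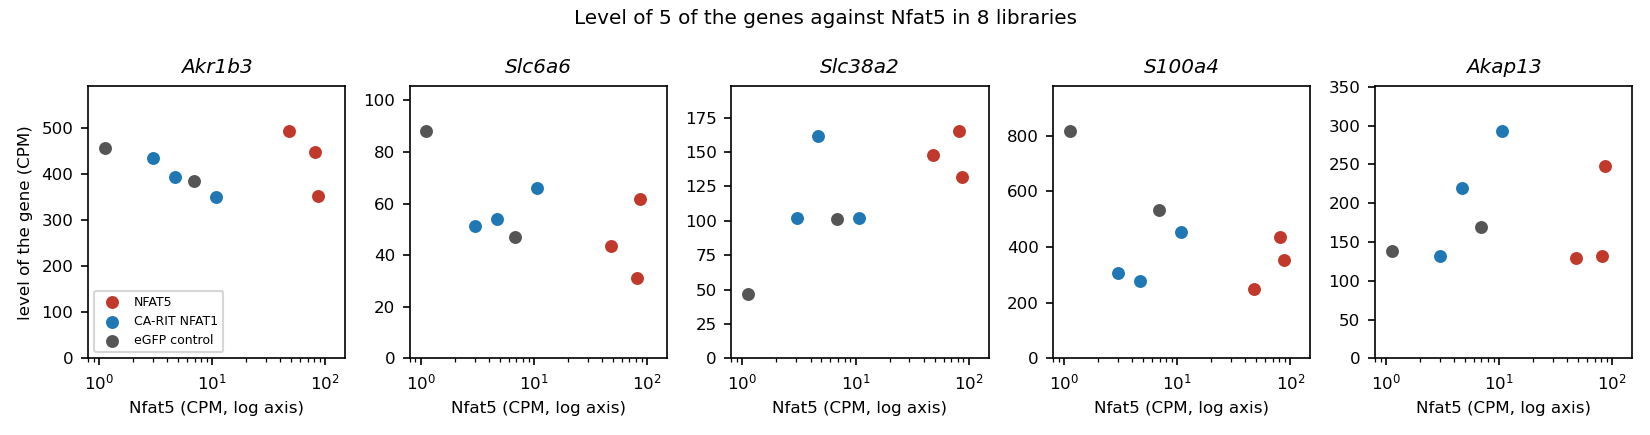
Level of 5 of the genes (y axis, CPM, linear) against the Nfat5 level of the same library (x axis, CPM, log axis) in 8 libraries, coloured by vector group. The 3 NFAT5 points stand apart on the x axis, at 48.0 to 87.0 CPM. For Slc6a6, NFAT5 5 and 8 (31.2 and 43.6 CPM) lie below the other 5 libraries (46.9 to 88.0 CPM). For the other genes shown the NFAT5 heights overlap the range of those 5 libraries, apart from single points at the edge.

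Among the osmolyte genes, Akr1b3 (chr6:34302434-34317478, minus strand) encodes aldose reductase, the enzyme that turns glucose into the osmolyte sorbitol and a classic NFAT5 target of the kidney. It had 353, 449 and 493 CPM in NFAT5 1, 5 and 8, 351, 393 and 434 CPM in CA-RIT NFAT1 2, 4 and 9, and 456 and 385 CPM in eGFP control 3 and 6. The groups overlap fully, and relative to its mean TPM the gene had the smallest SD of the 10. The log2 fold change was -0.07 ± 0.24 (SE) for NFAT5 against eGFP control, 0.15 ± 0.21 for NFAT5 against CA-RIT NFAT1 and -0.23 ± 0.24 for CA-RIT NFAT1 against eGFP control, with adjusted p = 0.934, 1.00 and 0.777. CA-RIT NFAT1 10 had 225 CPM and eGFP control 7 had 39.1 CPM, which is 2 reads. Akr1b3-201 carried 95.8 to 98.4% of the reads in the 8 libraries. Akr1b3 shares 14.2% of its words of 31 bases with Gm38056 and 8.01 to 9.76% with each of the pseudogenes Gm6644, Gm6736 and Gm12138, which had at most 22.2 CPM in any of the 8 libraries. Of its relatives, Akr1b10 had 21.2, 24.6 and 24.3 CPM in NFAT5, 26.3, 22.9 and 29.1 CPM in CA-RIT NFAT1, and 17.0 and 20.1 CPM in eGFP control, and Akr1b7 had no reads.

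Slc5a3 (chr16:92058322-92087473, plus strand) encodes the sodium-coupled myo-inositol transporter, another standard NFAT5 target. It had 1.26, 0 and 2.35 CPM in NFAT5 1, 5 and 8, 0.938, 1.89 and 2.85 CPM in CA-RIT NFAT1 2, 4 and 9, and 1.83 and 2.43 CPM in eGFP control 3 and 6. The groups overlap, and at no more than 80.4 estimated reads in any of these libraries a change of moderate size was not detectable. Its log2 fold change in NFAT5 against eGFP control was -0.92 ± 1.48 (SE), adjusted p = 0.853. Slc5a3 lies within the Mrps6 gene on chromosome 16, and Mrps6, a mitochondrial ribosomal protein gene, had 38.6, 37.7 and 55.3 CPM in NFAT5, 51.1, 32.5 and 61.9 CPM in CA-RIT NFAT1, and 94.8 and 44.8 CPM in eGFP control. The strand setting of the counting is not given in the sources used here, but both genes are on the plus strand, so reads from their overlap can be split either way.

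Slc6a6 (chr6:91684053-91759066, plus strand) encodes the taurine transporter. It had 61.7, 31.2 and 43.6 CPM in NFAT5 1, 5 and 8, 66.0, 53.9 and 51.2 CPM in CA-RIT NFAT1 2, 4 and 9, and 88.0 and 46.9 CPM in eGFP control 3 and 6. NFAT5 1 lay between the controls, and the other NFAT5 libraries lay below both. Its log2 fold change was -0.70 ± 0.37 (SE) for NFAT5 against eGFP control, adjusted p = 0.654, and -0.31 ± 0.34 for NFAT5 against CA-RIT NFAT1, adjusted p = 1.00. Without eGFP control 3 the first value was -0.08, and without eGFP control 6 it was -1.12, each with a lone control left. CA-RIT NFAT1 10 had 99.8 CPM, the highest value of any library, and eGFP control 7 had no read.

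Slc38a2 (chr15:96687392-96699730, minus strand) encodes SNAT2, a transporter of small neutral amino acids that rises in hypertonic cells and in amino acid starvation. It had 132, 165 and 148 CPM in NFAT5 1, 5 and 8, 102, 162 and 102 CPM in CA-RIT NFAT1 2, 4 and 9, and 46.6 and 101 CPM in eGFP control 3 and 6. All 6 NFAT5 and CA-RIT NFAT1 libraries stood above both controls, though 2 of the CA-RIT NFAT1 libraries by little. On the log2 scale the fold change was 0.92 ± 0.36 (SE) for NFAT5 against eGFP control, unadjusted p = 0.0327 and adjusted p = 0.654, and 0.63 ± 0.36 for CA-RIT NFAT1 against eGFP control, adjusted p = 0.679. NFAT5 against CA-RIT NFAT1 gave 0.29 ± 0.31, adjusted p = 1.00. The control at 46.6 CPM set much of the size: NFAT5 against eGFP control was 0.53 without eGFP control 3 and 1.51 without eGFP control 6. Each of these fits has a lone control left, and their median over all genes was 0.05 and 0.45. Slc38a2-201 carried 96.4 to 99.4% of the reads. It had 67.3 CPM in CA-RIT NFAT1 10 and no read in eGFP control 7.

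Slc6a9 (chr4:117834506-117875198, plus strand) encodes the glycine transporter GlyT1. It was listed at 0 reads in NFAT5 1, 5 and 8, had 3.77, 3.06 and 0 CPM in CA-RIT NFAT1 2, 4 and 9, and had 2.07 and 0.729 CPM in eGFP control 3 and 6, the last of these being 18 reads. All NFAT5 libraries lay below both controls but not below CA-RIT NFAT1 9, which was also at 0. With a floor of 3 reads over the NFAT5 group, the mean was at least 30.9-fold lower than in eGFP control and at least 50.4-fold lower than in CA-RIT NFAT1. The bound against eGFP control was 16.1-fold without eGFP control 3, 45.8-fold without eGFP control 6, and 19.4-fold, 22.2-fold and 20.3-fold without NFAT5 1, 5 and 8, where fewer reads set the floor. Against CA-RIT NFAT1 it was 31.6-fold without NFAT5 1, 33.1-fold without NFAT5 8 and 75.6-fold without CA-RIT NFAT1 9. The unadjusted p was 0.0195 and 0.0146, and the adjusted p 0.654 and 1.00. Slc6a9 passed the low-count filter through the other groups alone, so these p-values and bounds are given as a description. CA-RIT NFAT1 10 and eGFP control 7 had no read. Slc6a9 shares 26.1% of its 31-base words with the neighbouring Ccdc24, which had at most 0.0792 CPM, and the reads it had fell on transcripts that differed from library to library.

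Pnpla6 (chr8:3515384-3544267, plus strand) encodes neuropathy target esterase, a phospholipase that yields glycerophosphocholine, an osmolyte of the kidney medulla. It had 15.8, 12.9 and 2.32 CPM in NFAT5 1, 5 and 8, 17.1, 10.6 and 16.3 CPM in CA-RIT NFAT1 2, 4 and 9, and 9.86 and 16.8 CPM in eGFP control 3 and 6. NFAT5 8 was the lowest library and the other values overlap. The log2 fold change of NFAT5 against eGFP control was -0.46 ± 0.72 (SE), adjusted p = 0.847, and it was 0.01 without NFAT5 8. The transcript Pnpla6-211 had the most reads on average (48.5%) but none in eGFP control 3. CA-RIT NFAT1 10 had 16.3 CPM and eGFP control 7 had no read.

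**Figure D3:**
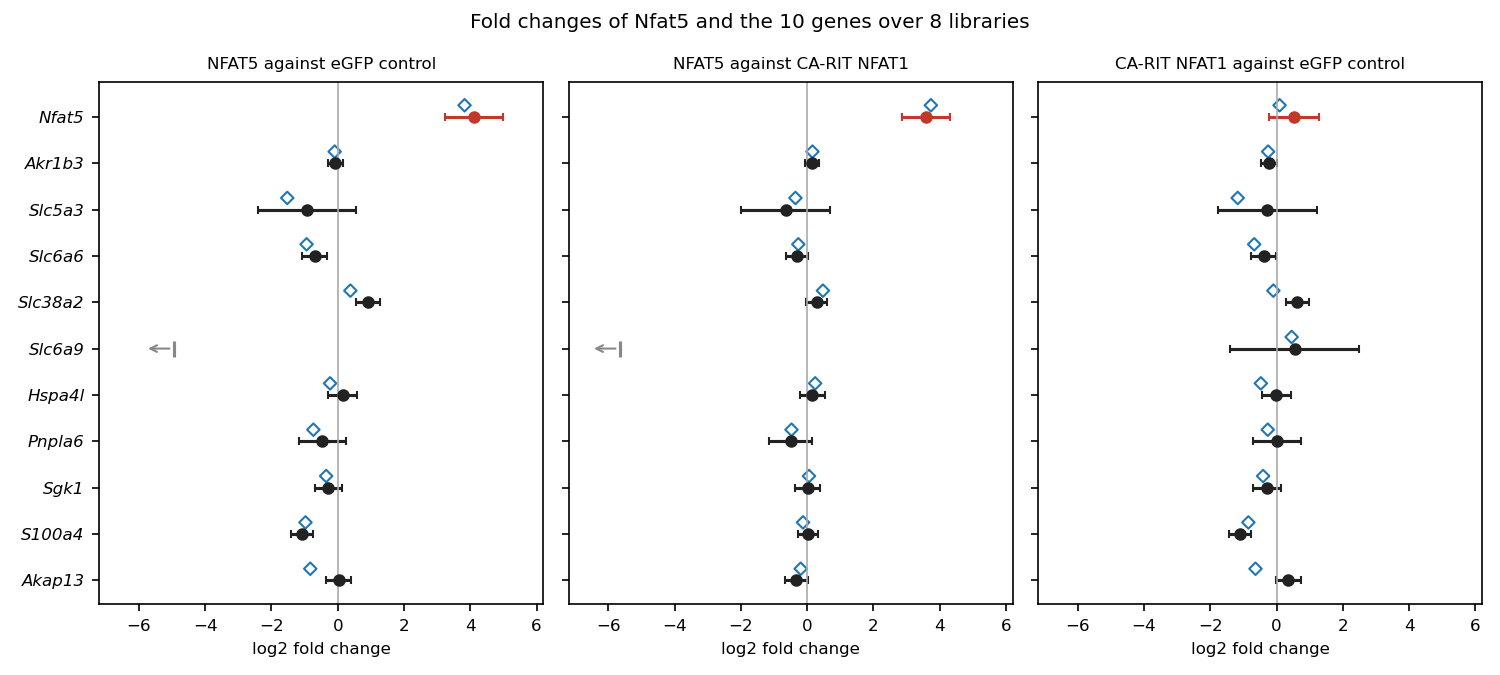
Log2 fold change (x axis) of Nfat5 and the 10 genes in the 3 comparisons over 8 libraries, black dots with bars of 1 SE (red for Nfat5). Open diamonds give the value after removal of the trend with transcript length, and grey arrows mark the bound of Slc6a9, which had no reads in NFAT5. Nfat5 stands at 4.11 and 3.58 in the comparisons of NFAT5. S100a4 (-1.08 and -1.10), Slc38a2 (0.92 and 0.63) and Slc6a6 (-0.70 and -0.39) lie more than 1 SE from 0 in both comparisons with eGFP control. With the length trend removed, Slc38a2 turns to -0.10 in CA-RIT NFAT1 against eGFP control.

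Hspa4l (chr3:40744495-40796103, plus strand) encodes a chaperone of the Hsp110 family, known as Osp94 for its induction by osmotic stress in kidney cells. It had 36.2, 29.0 and 30.8 CPM in NFAT5 1, 5 and 8, 47.6, 20.8 and 19.4 CPM in CA-RIT NFAT1 2, 4 and 9, and 21.1 and 32.8 CPM in eGFP control 3 and 6. The NFAT5 libraries were close together within the range of the others. Its log2 fold change was 0.15 ± 0.43 (SE) for NFAT5 against eGFP control, 0.16 ± 0.39 for NFAT5 against CA-RIT NFAT1 and -0.01 ± 0.43 for CA-RIT NFAT1 against eGFP control, with adjusted p = 0.924, 1.00 and 0.998. The reads divided among Hspa4l-201, Hspa4l-208 and Hspa4l-203, and eGFP control 3 had none on Hspa4l-203 and 60.2% on the longest, Hspa4l-208, against 20.4 to 31.5% in the other 7 libraries. It had 34.2 CPM in CA-RIT NFAT1 10 and no read in eGFP control 7.

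Sgk1 (chr10:21882184-21999903, plus strand) encodes a kinase that responds to serum, glucocorticoids and cell shrinkage and acts on ion channels and transporters; in CD4 T cells it is known as a mediator of the salt response. It had 68.6, 70.0 and 56.6 CPM in NFAT5 1, 5 and 8, 96.0, 59.2 and 41.6 CPM in CA-RIT NFAT1 2, 4 and 9, and 43.3 and 106 CPM in eGFP control 3 and 6. The 2 controls were the second lowest and the highest of the 8 libraries, so the groups overlap. The log2 fold change of NFAT5 against eGFP control was -0.28 ± 0.42 (SE), adjusted p = 0.840, and it turned to 0.42 without eGFP control 6. NFAT5 against CA-RIT NFAT1 gave 0.01 ± 0.37, adjusted p = 1.00. Sgk1-201, whose own promoter window holds no TGGAAA core, carried 70.1 to 96.4% of the reads, and Sgk1-202, downstream of the window printed above, carried 0.582 to 19.4%. Sgk1 had no read in CA-RIT NFAT1 10 or eGFP control 7.

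S100a4 (chr3:90603771-90606045, plus strand) encodes a small calcium-binding protein that binds myosin and is carried by effector and memory T cells and by macrophages; it is known to rise in renal medullary cells under osmotic stress. It had 353, 434 and 250 CPM in NFAT5 1, 5 and 8, 452, 279 and 308 CPM in CA-RIT NFAT1 2, 4 and 9, and 815 and 532 CPM in eGFP control 3 and 6. All NFAT5 and CA-RIT NFAT1 libraries lay below both controls. On the log2 scale the fold change was -1.08 ± 0.33 (SE) for NFAT5 against eGFP control, unadjusted p = 0.00986 and adjusted p = 0.654, and -1.10 ± 0.33 for CA-RIT NFAT1 against eGFP control, adjusted p = 0.679. NFAT5 against CA-RIT NFAT1 gave 0.02 ± 0.30, adjusted p = 1.00. Without eGFP control 3 the NFAT5 value was -0.65, and without eGFP control 6 it was -1.40, each with a lone control left. Over all genes the median was 0.05 and 0.45 in these fits.

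Beside S100a4, levels of marker genes also differed between groups, though 0 of them passed the test and the ranges overlap in part. The 9 T cell genes summed to 25536 to 26987 CPM in NFAT5, 27374 to 32439 CPM in CA-RIT NFAT1, and 32000 and 40606 CPM in eGFP control, and 8 of the 9 were lower in NFAT5 than in eGFP control (median log2 fold change -0.51), with none at 0 in any of the 8 libraries. The 10 macrophage and monocyte genes summed to 69.9 to 179 CPM in NFAT5, 93.9 to 218 CPM in CA-RIT NFAT1, and 115 and 238 CPM in eGFP control. Of these 10, 3 were higher in NFAT5 than in eGFP control (median log2 fold change -0.90). C1qa, C1qb, Ms4a7 and Cd14 were at 0 in NFAT5 5, C1qb in CA-RIT NFAT1 4 and Adgre1 in CA-RIT NFAT1 9. In eGFP control 3 Lyz2 and Adgre1 were at 0, and in eGFP control 6 Lyz2, Chil3, C1qb and Ms4a7. The part of the cells that carry these marker genes in the S100a4 values was not tested. S100a4 shares 49.2% of its 31-base words with Gm42674, which had 4.47 to 15.6 CPM in the 8 libraries. CA-RIT NFAT1 10 had 276 CPM of S100a4 and eGFP control 7 had no read.

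Akap13 (chr7:75455534-75754609, plus strand) encodes Brx, an anchoring protein known for raising NFAT5 expression in osmotically stressed lymphocytes, so it belongs upstream of NFAT5. It had 248, 132 and 129 CPM in NFAT5 1, 5 and 8, 293, 219 and 132 CPM in CA-RIT NFAT1 2, 4 and 9, and 138 and 169 CPM in eGFP control 3 and 6. NFAT5 1 stood above both controls and the other NFAT5 libraries below both. The log2 fold change was 0.03 ± 0.38 (SE) for NFAT5 against eGFP control, adjusted p = 0.984, -0.32 ± 0.34 for NFAT5 against CA-RIT NFAT1, adjusted p = 1.00, and 0.36 ± 0.38 for CA-RIT NFAT1 against eGFP control, adjusted p = 0.782. Akap13-205 carried 40.9 to 79.6% of the reads, and Akap13-201 had none in eGFP control 3. Akap13 had 1.45 CPM in CA-RIT NFAT1 10 and no read in eGFP control 7.

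Fold changes against eGFP control ran with transcript length. In NFAT5 against eGFP control the median over all genes was, on the log2 fold change scale, -0.20, -0.05, 0.19 and 0.43 from the shortest to the longest quartile of average effective length, and in CA-RIT NFAT1 against eGFP control it was -0.32, -0.02, 0.23 and 0.54. Without the controls, in NFAT5 against CA-RIT NFAT1, it was 0.10, -0.01, -0.03 and -0.08. eGFP control 3 differed from the mean of the other 7 libraries by 0.20, -0.19, -0.53 and -0.90 over the quartiles. S100a4 is in the shortest quartile and Slc38a2, Slc5a3 and Akap13 are in the longest. With the length trend removed, NFAT5 against eGFP control gave -0.97 for S100a4 and 0.38 for Slc38a2, and CA-RIT NFAT1 against eGFP control gave -0.85 for S100a4 and -0.10 for Slc38a2. Akap13 then stood at -0.83 and the median of the 10 members at -0.78 in NFAT5 against eGFP control, where the median of all genes was -0.09.

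**Figure D4:**
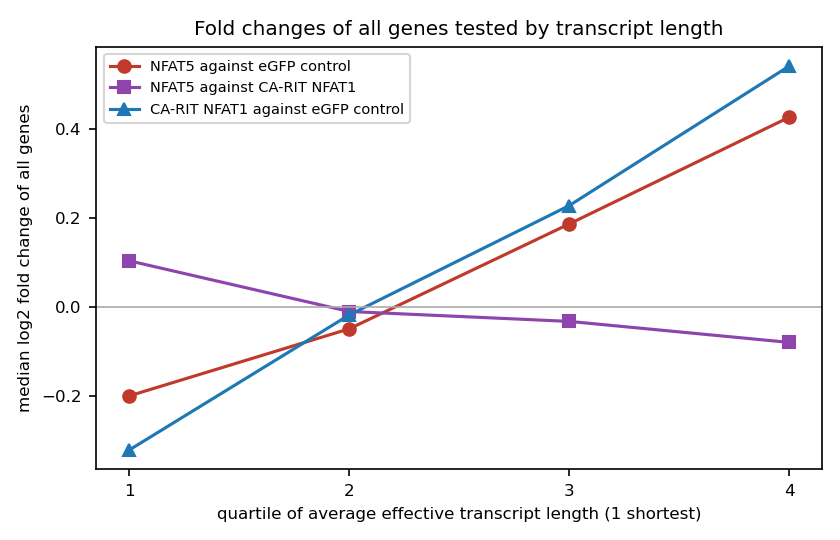
Median log2 fold change of all 14473 tested genes (y axis) by quartile of average effective transcript length (x axis, 1 shortest) in the 3 comparisons. Both lines against eGFP control climb, to 0.43 for NFAT5 and 0.54 for CA-RIT NFAT1 in the longest quartile, and the line of NFAT5 against CA-RIT NFAT1 stays between -0.08 and 0.10.

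Further genes of the osmotic response gave 0 calls at adjusted p below 0.05 in any comparison. Of 16 other osmotic and NFAT5 target genes, 12 were tested and 4 (Slc14a2, Aqp1, Aqp2 and Vegfc) had no reads. In NFAT5 against eGFP control 7 of the 12 were higher, against 53.9% of all tested genes. Their median log2 fold change was 0.33, against 0.08 for all genes. An unadjusted p below 0.05 in the edgeR test was found for 3 of the 12 and for 7.26% of all genes. Tnf, the cytokine gene, was at 2.68 ± 0.78 (SE, unadjusted p = 0.00862, adjusted p = 0.654) and Slc7a5, a large neutral amino acid transporter, at 1.30 ± 0.43 (unadjusted p = 0.0156, adjusted p = 0.654). In CA-RIT NFAT1 against eGFP control the same genes gave 1.75 ± 0.75 for Tnf and 1.32 ± 0.43 for Slc7a5, and in NFAT5 against CA-RIT NFAT1 0.93 ± 0.63 and -0.02 ± 0.37. CA-RIT NFAT1 against eGFP control also had 7 of the 12 higher (median 0.33). NFAT5 against CA-RIT NFAT1 had 4 of the 12 higher (median -0.17). There 2 of the 12 had an unadjusted edgeR p below 0.05, against 1.13% of all genes. The smallest was that of Atp1b1, at 7.44, 1.61 and 3.66 CPM in NFAT5 1, 5 and 8. It had at most 0.345 CPM in the other 5 libraries, and 1.26% of all genes are higher in all NFAT5 libraries. Of 19 organic osmolyte enzymes and transporters 14 were tested and 11 were higher in NFAT5 than in eGFP control (median 0.32). The share over all tested genes was the 53.9% given above. CA-RIT NFAT1 against the same controls also had 11 of the 14 higher (median 0.45), against 54.6% of all genes. NFAT5 against CA-RIT NFAT1 had 7 of the 14 higher (median -0.04), against 49.5% of all genes. Slc6a13, a GABA and taurine transporter, was rare in every library, with no reads in both controls. It had 0.242, 2.45 and 1.53 CPM in NFAT5 1, 5 and 8, and 0.640, 1.52 and 1.95 CPM in CA-RIT NFAT1 2, 4 and 9. With the floor of 3 reads its level was at least 28.7-fold higher in NFAT5 and at least 28.0-fold higher in CA-RIT NFAT1. The adjusted p of the edgeR test was 0.654 and 0.679. Slc6a13 passed the low-count filter through the NFAT5 and CA-RIT NFAT1 libraries alone, so these values are given as a description. Gdpd5, which breaks down glycerophosphocholine, gave -0.92 ± 0.55, adjusted p = 0.664.

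Of 17 cell volume and ion transport genes 15 were tested and 7 were higher in NFAT5 than in eGFP control (median -0.09). Wnk1, a chloride-sensing kinase, gave -0.71 ± 0.31 (SE), adjusted p = 0.654. Of 18 regulators of NFAT5 activity, all tested, 16 were higher in NFAT5 than in eGFP control (median 0.63). Over all tested genes 53.9% were higher (median 0.08). In CA-RIT NFAT1 against eGFP control 16 of the 18 were higher (median 0.56), against 54.6% of all genes. In NFAT5 against CA-RIT NFAT1 11 of the 18 were higher (median 0.06), against 49.5% of all genes. Prkaca, the catalytic subunit of protein kinase A, gave 0.71 ± 0.30 and Xpo1, a nuclear exporter, gave 1.11 ± 0.48 for NFAT5 against eGFP control, adjusted p = 0.654 each. Both comparisons with high counts use the same 2 controls. In eGFP control 3 and 6 Prkaca had 23.9 and 42.9 CPM, and Xpo1 had 29.8 and 90.1 CPM. The part of these controls, or of transcript length, in the counts was not tested.

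**Figure D5:**
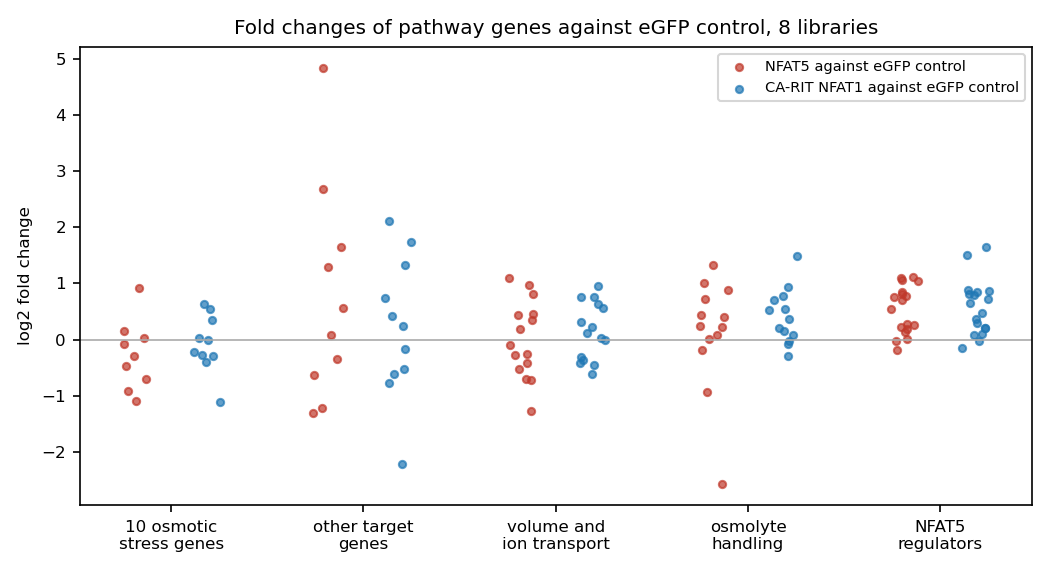
Log2 fold change against eGFP control (y axis) of each tested gene of the 10 members and 4 lists, red for NFAT5 and blue for CA-RIT NFAT1; genes at 0 reads in a whole group are not drawn, and points are spread sideways for visibility. The regulators lie mostly above 0, with 16 of 18 in each comparison, while the 10 members lie on both sides of 0. Of all tested genes 53.9% lie above 0 for NFAT5 and 54.6% for CA-RIT NFAT1.

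For Akr1b3, Slc5a3 and Slc6a6 the genes with the most similar pattern over the 8 libraries were sought among the 9298 genes averaging 5 CPM or more, by Pearson's r of log2(CPM + 1). For Akr1b3 these were Gm8186 (r = 0.995), a processed pseudogene, and Cox8a (0.985), for Slc5a3 Sclt1 (0.918) and G2e3 (0.912), and for Slc6a6 Usp18 (0.971) and Rccd1 (0.968). Nfat5 was among none of them. These are the highest of 9298 values over 8 points that share library and depth, and are given as a description.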

How the data were processed

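RNA of sorted CD8 T cells was sequenced in 10 libraries. The submitters' processing notes name Salmon 0.14.1 and the GRCm38.p6 and mm10 builds; for trimming and strand, the sources used here give no setting. Per the file headers, each table holds per transcript the length and effective length (a quantity other than expression, in bases), TPM and reads. Estimated counts, deposited with fractions, were summed by gene and rounded here. The deposited TPM values gave levels per length, and weighted the deposited lengths.

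Of 140919 transcripts, 139966 were matched to GENCODE M21, a release inferred because 99.9% had identical lengths; the 953 others took up to 0.292% of any library's reads. CPM scale a gene's reads to the reads on all matched genes, with no TMM factor, while log2 fold changes use TMM scaling, so the 2 can differ in sign near 0. Depth was 18.8 to 36.6 M estimated reads in 9 libraries, and eGFP control 7 had 51112. Intervals and floors of 3 reads cover counting error only.

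The members, lists, fits and alternatives were chosen with earlier results of these data known, including the choice of 8 libraries. Genes were tested with edgeR 4.0.16 (R 4.3.3): quasi-likelihood fit, TMM, default low-count filter, 1 dispersion trend over 3 groups, Benjamini-Hochberg adjustment at 0.05 over 14473 genes. The biological coefficient of variation was 0.725. The exact permutation test used SciPy 1.17.1 and log2 of CPM plus 1. Alternatives were all 10 libraries, RLE and upper-quartile scaling, other filters, DESeq2 1.42.0, limma 3.58.1 voom, an average transcript length offset, removal of a trend with transcript length (lowess, span 0.3, added after the data were seen) and each library left out. Named were all members, Nfat5, and, per list, the 2 genes with the smallest unadjusted p in NFAT5 against eGFP control where none passed (1 of these is not reported here); genes that overlap or resemble a member; and, for 3 members, the 2 genes most alike. Atp1b1 was named in addition after the data were seen, for its p in NFAT5 against CA-RIT NFAT1. Titles number the libraries 1 to 10 without repeats, so replicate numbers pair no samples.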

Additional observations from a re-analysis of the deposited data

Results flagged for a closer look

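CA-RIT NFAT1 10, a library that enters no comparison, had 99.8 CPM of Slc6a6, above both eGFP controls at 46.9 and 88.0 CPM. The same library had 34.2 CPM of Hspa4l, above the controls at 21.1 and 32.8 CPM. Its 9 T cell genes summed to 246 CPM, its 8 mast cell and P511 genes to 2704 CPM and its 10 macrophage and monocyte genes to 4384 CPM, and the part of these in either value was not tested. Pnpla6 had 10.6 CPM in CA-RIT NFAT1 4, far from the other CA-RIT NFAT1 libraries at 16.3 to 17.1 CPM, with a gap of 0.883 of the range of the 4 libraries. These 4 include CA-RIT NFAT1 10, and the 3 libraries of the comparisons are too few for such a comparison of gaps. Among 4 libraries, chance sets such a sample apart in about 1 of 20 groups.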

How the results depend on the processing

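Limits: 2 usable controls, of which eGFP control 3 differs with transcript length, and a biological coefficient of variation of 0.725 limit what can be called; the cause of the changes listed here was not tested. No paired analysis was possible because no library number occurs in more than 1 group. DESeq2 called 73 genes higher and 29 lower in NFAT5 against eGFP control, 1 higher (Nfat5) in NFAT5 against CA-RIT NFAT1, and 44 and 16 in CA-RIT NFAT1 against eGFP control, with 0 members in each, where edgeR called 0. Leaving out 1 library at a time gave 0 to 2471 higher and 0 to 823 lower genes with 0 to 2 members in NFAT5 against eGFP control, and 0 to 2550 and 0 to 860 with 0 to 2 members in CA-RIT NFAT1 against eGFP control; the upper values come from leaving out eGFP control 6 and the members are S100a4 and Slc38a2. The Nfat5 difference was 3.39 to 4.00, with exact p = 0.0571 or 0.0952, the smallest those designs allow. Removal of the length trend called 1 gene lower in CA-RIT NFAT1 against eGFP control and moved the members' median in NFAT5 against eGFP control to -0.78. No sign change of a member's fold change passed the test in any setting. In NFAT5 against eGFP control Akr1b3 turned to 0.083 with 10 libraries, Hspa4l to -0.23 without the length trend, and Akap13 to -0.015 (upper-quartile scaling), -0.15 (voom), -0.47 (length offset) and -0.83 (trend removed). In NFAT5 against CA-RIT NFAT1 Sgk1 turned to -0.00075 (length offset), S100a4 to -0.12 (trend removed) and Akap13 to 0.090 (10 libraries). In CA-RIT NFAT1 against eGFP control Slc38a2 turned to -0.10 (trend removed), Hspa4l to 0.079 (10 libraries) and 0.0061 (no filter), Pnpla6 to -0.012 (upper-quartile), -0.067 (voom), -0.86 (offset) and -0.26 (trend removed), Slc6a9 to -0.29 (voom), and Akap13 to -0.30 (offset) and -0.63 (trend removed). Leaving out 1 library turned signs in NFAT5 against eGFP control for Akr1b3 (-0.24 to 0.14), Hspa4l (-0.064 to 0.43), Sgk1 (-0.73 to 0.42), Pnpla6 (-0.88 to 0.0089) and Akap13 (-0.30 to 0.20). It did so in NFAT5 against CA-RIT NFAT1 for Hspa4l (-0.059 to 0.66), Sgk1 (-0.22 to 0.36) and S100a4 (-0.19 to 0.23). In CA-RIT NFAT1 against eGFP control it did so for Slc5a3 (-0.69 to 0.073), Slc6a6 (-0.81 to 0.23), Hspa4l (-0.50 to 0.27), Sgk1 (-0.75 to 0.41), Pnpla6 (-0.24 to 0.39), Slc6a9 (-0.037 to 1.59) and Nfat5 (-0.22 to 2.26). The stricter low-count filter leaves Slc5a3 and Slc6a9 untested.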
